A study of Mus musculus with 20 samples.

Results

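The hippocampus of mice infused with the second pool of patient small RNAs (sRNAs) was compared with that of mice infused with sRNAs from control individuals, in 5 Pool 2 mice and 5 Control mice of the 20 mice sequenced. All were wild-type male C57BL/6JOlaHsd mice, labelled as 4 months old. The sRNAs were pooled from human post-mortem hippocampus and given through cannulas into CA1 of the dorsal hippocampus on both sides, in Pool 2 mice from patients with schizophrenia and in Control mice from individuals without the disease. Tissue was taken 24 hours after the last behavioural test. The other 10 mice received a first patient pool (Pool 1) or vehicle without sRNAs (artificial cerebrospinal fluid, Vehicle), and their libraries enter here through the shared estimate of the spread and, for single genes, as further reference levels. All mice of a group received the same pool, so the replicates are mice and not separate pools. All 25190 genes of the count table were tested, first with all 5 Pool 2 mice and then without Pool 2 replicate 1, which stood apart from the other 4 in its immune genes.

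As background, RNA that enters a cell from outside can be sensed by receptors in endosomes and in the cytoplasm, whose signals switch on interferons and, through them, a large set of antiviral genes. In brain tissue, microglia, astrocytes, endothelium and the macrophages that line vessels respond to such signals, and antigen presentation by the major histocompatibility complex (MHC) rises with them. Bulk tissue also holds neurons of the CA fields and the dentate gyrus, interneurons, vessel walls and, depending on the dissection, meninges, choroid plexus and the thalamus that lies beneath the hippocampus.

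Expression was given as CPM, the reads of a gene per unit of library size, with total counts of 21928988 to 25543939 in Control mice and 21562625 to 25100519 in Pool 2 mice. A gene passed as upregulated or downregulated, by the study's threshold, when its log2 fold change was 0.3 or more in either direction with an unadjusted p-value below 0.05 in edgeR's quasi-likelihood test. No gene reached an adjusted p-value under 0.05 in edgeR in either fit. The smallest adjusted p-values were 0.39 with 5 and 0.64 with 4 Pool 2 mice, and 1939 and 1303 genes had an unadjusted p-value under 0.05. DESeq2 gave 18 and 15 genes with an adjusted p-value under 0.05. They included Ehd4, Gpx3, Gimap4, Lamc3, Serpinf1, Aspg and Nkg7 with all mice, and Ehd4, Gpx3, Sgpp2, Adra1b, Patj and Rgs16 without replicate 1. Every gene described below as upregulated or downregulated is therefore past the unadjusted threshold only, unless DESeq2 is named. In data simulated with 200 genes changed by 2 on the log2 scale, DESeq2 gave 21 unchanged genes an adjusted p-value under 0.05. In edgeR this number was 6, each over 20 libraries. Far fewer genes passed in the mice, so these numbers do not tell how many of the 18 are false calls. Markers of the labelled tissue were present in all 10 mice, with Wfs1 of CA1 at 130 to 365 CPM and Prox1 of the dentate gyrus at 54.9 to 195 CPM.

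With all 5 mice, 1311 genes were upregulated in Pool 2 mice (5.2% of the genes tested) and 255 downregulated (1.01%). Without Pool 2 replicate 1, 835 were upregulated (3.31%) and 294 downregulated (1.17%). In simulated data, 3.74% of unchanged genes passed this threshold in either direction in edgeR over 20 libraries, and 3.61% over 19. Many of the genes counted may therefore be unchanged, above all without replicate 1. The fits had 671 upregulated and 160 downregulated genes in common. Counts of upregulated list members below are read against 5.2% of all genes with all mice and 3.31% without replicate 1. With all mice, protein-coding genes made up 76.4% of the upregulated genes, against 66.5% of the genes tested, but 33.7% of the downregulated genes. Without replicate 1 they made up 67.8% of the upregulated genes, near their share of the genes tested, and 31.0% of the downregulated genes. Processed pseudogenes were 30.2% of the downregulated genes with all mice and 37.4% without replicate 1, against 8.18% of the genes tested.

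The upregulated genes were unevenly spread over the mice. Pool 2 replicate 1 was the highest Pool 2 mouse for 754 of the 1311 genes (57.5%), against 27.5% of all genes. In the fit without it, Pool 2 replicate 4 was the highest of the remaining mice for 374 of 835 genes (44.8%), against 21.5% of all genes. In 194 genes (0.77% of those tested) all 5 Pool 2 mice lay above all 5 Control mice, and in 71 (0.282%) all lay below. Of the former, 159 were also upregulated, 116 of them protein-coding, and 130 of the 159 remained upregulated without replicate 1. That 130 remained is partly built in, since the 159 were chosen with every Pool 2 mouse above every Control mouse.

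**Figure D1:**
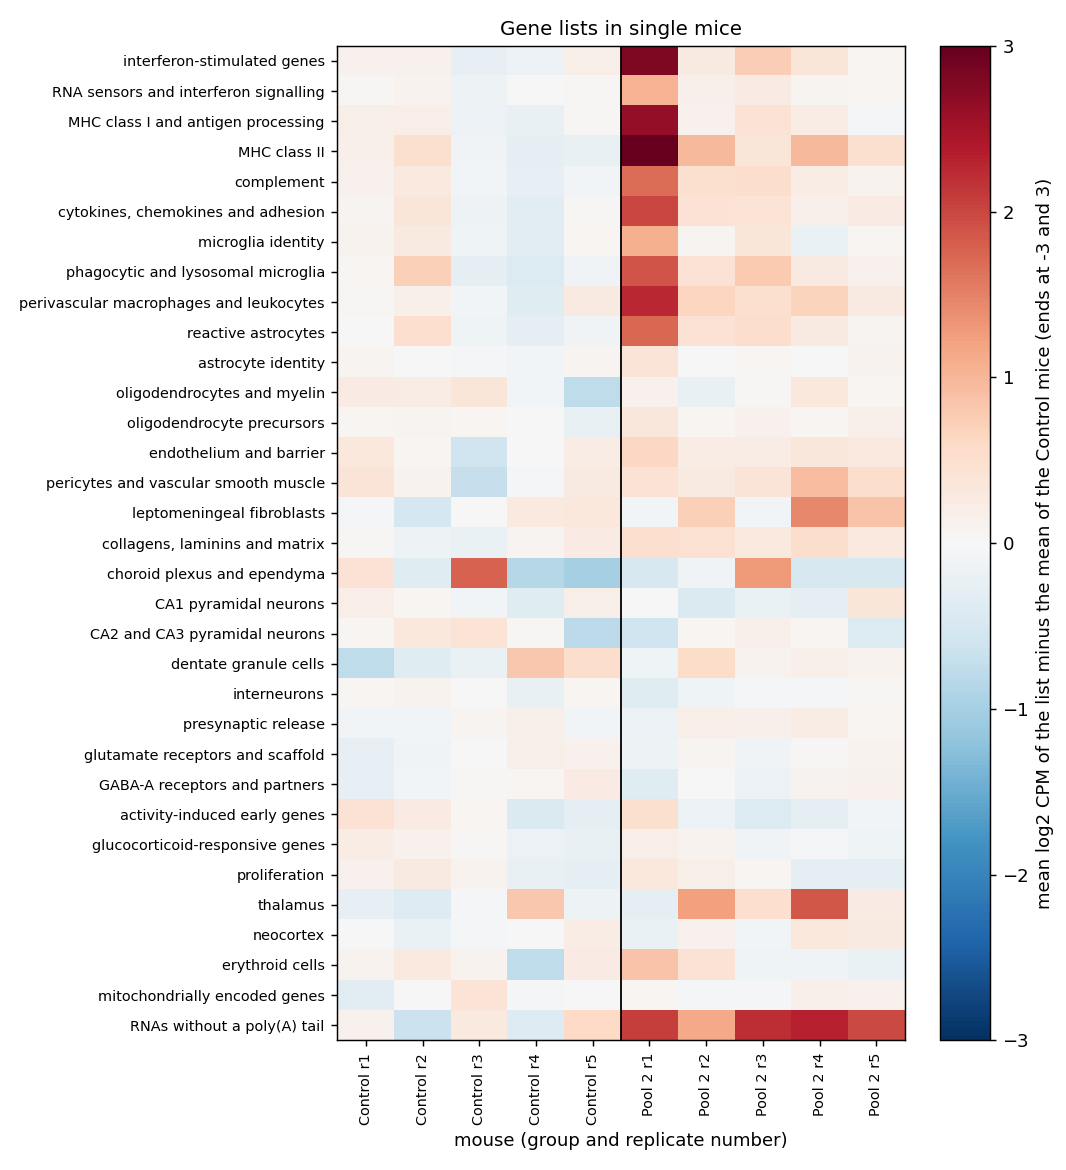
Each square gives the mean log2 CPM of a gene list in 1 mouse minus the mean of the 5 Control mice (red higher, blue lower), for the Control and Pool 2 mice (r1 to r5 are the replicates). Immune lists stand out in Pool 2 replicate 1, thalamic and leptomeningeal lists in Pool 2 replicate 4, and RNAs without a poly(A) tail in all 5 Pool 2 mice.

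Genes raised in every Pool 2 mouse were led by Ehd4, a membrane-remodelling protein of endosomal recycling (chromosome 2, 120089175 to 120154606, GRCm38). Its level was 7.06, 6.62, 6.67, 6.56 and 7.34 CPM in Control replicates 1 to 5, and 13.4, 10.5, 8.71, 9.64 and 11.04 CPM in Pool 2 replicates 1 to 5. The groups did not overlap, and the Control mice lay within a narrow range. The log2 fold change was 0.64 ± 0.12 (SE, adjusted p = 0.39), and 0.54 ± 0.12 without replicate 1 (adjusted p = 0.64). DESeq2 gave Ehd4 adjusted p-values of 0.00229 and 0.0212. In Vehicle mice Ehd4 ranged from 7.19 to 10.1 CPM, which overlapped both groups, and the log2 difference of Pool 2 mice from Vehicle mice was 0.28 (adjusted p = 0.886).

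Gpx3, the secreted glutathione peroxidase that reduces peroxides (chromosome 11, 54902453 to 54910377), came next by p-value. Control mice had 2.19, 1.47, 1.24, 1.27 and 1.90 CPM, and Pool 2 mice had 5.07, 3.66, 5.75, 5.01 and 3.39 CPM. All Pool 2 mice were above all Control mice, and replicate 3 rather than replicate 1 was highest. The log2 fold change was 1.501 ± 0.31 (SE, adjusted p = 0.39), and 1.46 ± 0.33 without replicate 1 (adjusted p = 0.64). Vehicle mice had 1.33 to 4.38 CPM, and the log2 difference of Pool 2 from Vehicle was 0.90 (adjusted p = 0.886).

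Serpinf1, which encodes pigment epithelium-derived factor, an inhibitor of vessel growth that also supports neurons (chromosome 11, 75409769 to 75422701), passed the threshold against each of the other groups. It was at 10.3, 10.5, 10.5, 13.4 and 12.2 CPM in Control mice and at 19.6, 20.5, 18.3, 19.5 and 14.1 CPM in Pool 2 mice. Replicates 1 to 4 were close together and replicate 5 was nearest to the Control mice. The log2 fold change was 0.69 ± 0.16 (SE, adjusted p = 0.408), with 0.67 ± 0.17 without replicate 1 (adjusted p = 0.64). Pool 2 mice exceeded Vehicle mice (9.61 to 12.7 CPM) by 0.81 on the log2 scale (adjusted p = 0.489) and Pool 1 mice (6.32 to 14.5 CPM) by 0.81 (adjusted p = 0.128).

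Laminins and other proteins of the basement membrane were among the upregulated genes. Lamc3, a laminin gamma chain, was at 5.28, 4.36, 4.05, 6.08 and 5.39 CPM in Control mice and at 9.32, 9.11, 6.92, 9.01 and 8.33 CPM in Pool 2 mice, with no overlap (log2 fold change 0.76 ± 0.17, adjusted p = 0.408, and 0.73 ± 0.18 without replicate 1, adjusted p = 0.64). Lamb2, a laminin beta chain, was at 17.2 to 34.7 CPM in Control mice and 37.2 to 50.3 CPM in Pool 2 mice (log2 fold change 0.59 ± 0.14, adjusted p = 0.408, and 0.51 ± 0.14, adjusted p = 0.64). Nid1, which links laminin to collagen, was at 4.92 to 8.05 CPM and 8 to 10.8 CPM, where the ranges overlapped slightly (log2 fold change 0.57 ± 0.14, adjusted p = 0.445). Sparc, a collagen-binding matrix protein, was at 201 to 310 CPM and 281 to 468 CPM and overlapped (log2 fold change 0.43 ± 0.12, adjusted p = 0.479). Of the 26 collagen, laminin and matrix genes, 14 were upregulated with all mice and 10 without replicate 1, and none was downregulated. Their median log2 fold change was 0.40 with all mice and 0.33 without replicate 1, against 0.003 over all genes in each fit. Leaving out Control replicate 3, the Control mouse with the lowest vascular genes, lowered the first count to 9, and leaving out Pool 2 replicate 4 lowered the second to 4. The mean log2 CPM of the list was 3.77 to 4.02 in Pool 2 mice and 3.29 to 3.73 in Control mice. Vehicle mice lay at 3.6 to 4.1, which spanned the Pool 2 range, and Pool 1 mice at 3.49 to 3.72.

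The remaining leading coding genes had varied roles. Aspg, an asparaginase that also marks reactive astrocytes, was at 3.26, 4.40, 2.39, 4.25 and 4.38 CPM in Control mice and 10.4, 8.06, 7.04, 6.09 and 4.42 CPM in Pool 2 mice. Replicate 5 lay just above the highest Control mouse (log2 fold change 0.94 ± 0.22, adjusted p = 0.408, and 0.77 ± 0.21 without replicate 1, adjusted p = 0.64). Tgfbr2, a receptor for transforming growth factor beta, rose from 15.7 to 20.4 CPM in Control mice to 21.4 to 38.4 CPM in Pool 2 mice (log2 fold change 0.58 ± 0.14, adjusted p = 0.408). Vehicle mice had 19.4 to 28.9 CPM of Tgfbr2, and the log2 difference of Pool 2 from Vehicle was 0.17 (adjusted p = 0.946). Sgpp2, a phosphatase of sphingosine 1-phosphate, was at 4.76 to 8.51 CPM in Control mice and 8.32 to 18.6 CPM in Pool 2 mice, with replicate 1 the lowest (log2 fold change 0.84 ± 0.20, adjusted p = 0.408, and 0.95 ± 0.20 without it, adjusted p = 0.64). Gimap4, a GTPase of lymphocytes, was at 0.119 to 0.575 CPM and 0.542 to 3.66 CPM, and Cd40, a co-stimulatory receptor of antigen-presenting cells, at 0.138 to 0.398 CPM and 0.428 to 1.28 CPM. Both passed the threshold without replicate 1 as well, at log2 fold changes of 1.61 and 1.18 (adjusted p = 0.64 and 0.658).

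**Figure D2:**
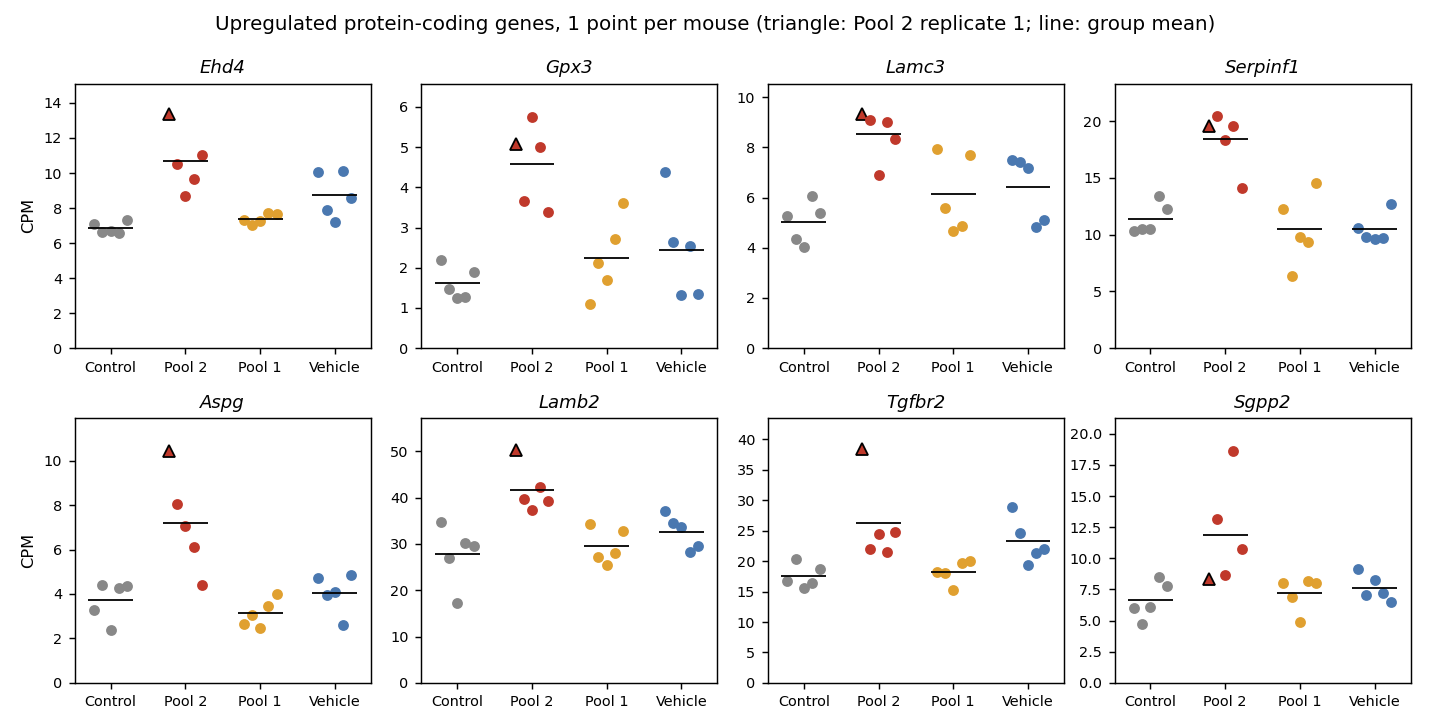
CPM of 8 of the 10 upregulated protein-coding genes with the smallest p-values, 1 point per mouse in the 4 groups, with the group mean as a line and Pool 2 replicate 1 as a triangle. Pool 2 mice lie above Control mice in 7 of the panels with all 5 mice, and in the Sgpp2 panel replicate 1 (8.32 CPM) lies below the highest Control mouse (8.51 CPM), while several Vehicle mice reach the Pool 2 range for Ehd4 and Tgfbr2.

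Interferon-stimulated genes were upregulated as a group in the fit of all mice and depended on Pool 2 replicate 1 for most of it. Of 39 members measured, 32 were upregulated with all 5 mice and 5 without replicate 1, with none downregulated. Their median log2 fold change was 1.23 and then 0.33. With a further library left out beside replicate 1, the number upregulated was 2 (without Control replicate 3 or Pool 2 replicate 3) to 9 (without Pool 2 replicate 5). The mean log2 CPM of the list was 4.08 in replicate 1, 1.33 to 2.02 in the other 4 Pool 2 mice, 1.02 to 1.45 in Control mice and 1.13 to 2.15 in Vehicle mice. The Vehicle mice, which received no sRNA, thus reached the levels of these 4 Pool 2 mice.

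Single members varied over the mice in the same manner. Zbp1, a sensor of left-handed nucleic acids that can trigger cell death, was at 0.134, 0.238, 0.184, 0.0398 and 0.221 CPM in Control mice and 11.6, 0.506, 0.917, 0.542 and 0.301 CPM in Pool 2 mice. The groups did not overlap, and replicate 1 was more than 10 times the next mouse (log2 fold change 4.03 ± 1.04, adjusted p = 0.445, and 1.77 ± 0.62 without it, adjusted p = 0.833). Oas1a, which makes the messenger that activates RNase L, was at 0.0795 to 0.754 CPM in Control mice and at 4.75, 0.584, 0.917, 0.668 and 0.558 CPM in Pool 2 mice, which overlapped (log2 fold change 2.08 ± 0.59, adjusted p = 0.479, and 0.96 ± 0.43 without replicate 1, adjusted p = 0.918). Iigp1, an interferon-inducible GTPase, was at 2.06 to 2.94 CPM and at 69.2, 4.36, 3.42, 3.76 and 3.14 CPM, with no overlap (log2 fold change 2.67 ± 0.78, adjusted p = 0.479, and 0.49 ± 0.23, adjusted p = 0.952). Samd9l, an antiviral growth regulator, was at 2.55 to 3.94 CPM and at 10.3, 5.30, 3.71, 4.92 and 4.90 CPM (log2 fold change 0.84 ± 0.22, adjusted p = 0.445, and 0.54 ± 0.18, adjusted p = 0.805).

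Sequences upstream of 4 such genes are shown because many genes of the list share short letters there that interferon-activated factors are known to bind. The letters GAAANNGAAA, read on either strand (the other strand reads TTTCNNTTTC), lay in the window from 250 bases before to 50 bases after the start in 18 of the 28 interferon-stimulated genes with a window in RefSeq (64.3%), against 3.99% of all 27025 genes there. Of the upregulated genes, 9.50% had a match with all 5 mice (79 of 832 with a window) and 4.55% without replicate 1 (22 of 483), against 3.74% of the 15006 genes of the count table with a window. Of the downregulated genes, 6.93% had a match with all 5 mice (7 of 101) and 7.22% without replicate 1 (7 of 97). A match shows only that the letters are present. The 220 bases before each start are given 5′ to 3′ on the strand of the gene (RefSeq, GRCm38.p6), with the matching letters in capitals. In Oas1a, 2 matches overlap and begin 20 and 14 bases before the start, and those of Cxcl10, Rsad2 and Gbp2 begin 213, 120 and 59 bases before it.
Oas1a (chr5:120907526-120907745, minus strand): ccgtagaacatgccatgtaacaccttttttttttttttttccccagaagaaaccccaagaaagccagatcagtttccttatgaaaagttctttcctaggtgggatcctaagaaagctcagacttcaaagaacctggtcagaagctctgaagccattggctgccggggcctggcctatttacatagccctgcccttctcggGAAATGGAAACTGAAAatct
Cxcl10 (chr5:92348890-92349109, minus strand): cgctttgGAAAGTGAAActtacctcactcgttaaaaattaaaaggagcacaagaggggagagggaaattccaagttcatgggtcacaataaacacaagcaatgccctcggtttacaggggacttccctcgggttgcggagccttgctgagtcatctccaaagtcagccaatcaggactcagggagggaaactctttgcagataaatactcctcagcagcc
Rsad2 (chr12:26456453-26456672, minus strand): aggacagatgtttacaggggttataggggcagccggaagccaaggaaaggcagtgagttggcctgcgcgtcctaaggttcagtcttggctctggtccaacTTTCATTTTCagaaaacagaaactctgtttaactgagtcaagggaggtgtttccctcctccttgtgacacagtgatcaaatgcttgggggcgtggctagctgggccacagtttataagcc
Gbp2 (chr3:142620443-142620662, plus strand): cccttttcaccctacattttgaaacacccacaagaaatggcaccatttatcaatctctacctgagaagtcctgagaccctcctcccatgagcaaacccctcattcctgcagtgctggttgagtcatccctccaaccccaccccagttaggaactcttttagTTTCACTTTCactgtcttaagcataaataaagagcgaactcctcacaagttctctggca

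Rsad2 (viperin, an antiviral enzyme) and Gbp2 (a guanylate-binding protein) were chosen for this display after their values were seen. Rsad2 was at 1.48, 1.43, 1.01, 1.47 and 1.28 CPM in Control mice and 6.99, 2.06, 2.00, 2.46 and 1.89 CPM in Pool 2 mice. All 5 Pool 2 mice were higher, and it passed the threshold with and without replicate 1 (log2 fold change 1.20 ± 0.37, adjusted p = 0.479, and 0.65 ± 0.30, adjusted p = 0.931). Gbp2 was at 3.42 to 5.95 CPM and at 93.1, 5.14, 7.83, 6.18 and 3.65 CPM, where only replicate 1 stood clear of all Control mice by a wide margin (log2 fold change 2.41 ± 0.75, adjusted p = 0.479, and 0.39 ± 0.25 without it, adjusted p = 0.954, not past the threshold).

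Sensors of RNA and their signalling partners passed with all mice but not without replicate 1. Of 30 measured members, 14 were upregulated with all 5 mice and 0 without replicate 1, where 25 of the 30 still had a positive log2 fold change and the median was 0.13. Ddx58, the cytoplasmic receptor RIG-I, was at 5.72 to 7.34 CPM in Control mice and 17.2, 7.95, 9.38, 7.47 and 5.88 CPM in Pool 2 mice (log2 fold change 0.62 ± 0.21, adjusted p = 0.486, and 0.31 ± 0.16 without replicate 1, adjusted p = 0.952, not past the threshold). Irf7, the transcription factor that amplifies interferon production, was at 1.56 to 2.70 CPM and 19.2, 2.73, 4.92, 3.17 and 2.06 CPM (log2 fold change 1.55 ± 0.51, adjusted p = 0.486, and 0.56 ± 0.31, adjusted p = 0.952, not past the threshold). For both genes Pool 2 replicate 5 lay within the Control range. Ikbke, a kinase of this pathway, and Unc93b1, which brings Toll-like receptors to endosomes, had log2 fold changes of 0.83 and 0.80 with all mice (adjusted p = 0.486 and 0.486), and 0.39 and 0.295 without replicate 1, neither past the threshold (adjusted p = 0.952 and 0.919).

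MHC class II genes, which present antigen on professional antigen-presenting cells, had the largest median of the 33 lists with all mice and kept part of it without replicate 1. Of 7 members, 6 were upregulated with all mice and 4 without replicate 1, with median log2 fold changes of 4.11 and 0.87. Cd74, the invariant chain that loads class II, was at 3.35, 3.85, 2.35, 1.39 and 1.37 CPM in Control mice and at 390, 9.15, 4.5, 7.80 and 3.95 CPM in Pool 2 mice. No Pool 2 mouse was below a Control mouse, and replicate 1 was far above all others (log2 fold change 5.07 ± 1.23, adjusted p = 0.445, and 1.37 ± 0.37 without it, adjusted p = 0.64). H2-Aa, a class II alpha chain, was at 0.929 to 2.26 CPM and at 162, 4.21, 2.67, 4.76 and 2.36 CPM (log2 fold change 4.61 ± 1.14, adjusted p = 0.445, and 1.29 ± 0.37, adjusted p = 0.658). H2-Ab1 and H2-Eb1, the beta chains, had log2 fold changes of 4.35 and 4.11 with all mice (adjusted p = 0.45 and 0.468) and 0.94 and 0.87 without replicate 1 (adjusted p = 0.782 and 0.782). Vehicle mice had 2.54 to 7.50 CPM of Cd74, and without replicate 1 the log2 difference of Pool 2 from Vehicle was 0.08 (adjusted p = 0.998).

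MHC class I and antigen processing genes, which display peptides from inside the cell, had 14 of 20 members upregulated with all mice and 2 without replicate 1. The median log2 fold change was 1.13 and then 0.23. With a further library left out, the second count was 0 (Control replicate 3 or 4, or Pool 2 replicate 3 or 4) to 4 (Pool 2 replicate 5). Tap1, the peptide transporter, was at 2.35 to 4.51 CPM in Control mice and at 50.8, 4.44, 6.79, 4.92 and 4.47 CPM in Pool 2 mice (log2 fold change 1.88 ± 0.58, adjusted p = 0.479, and 0.41 ± 0.19, adjusted p = 0.943). Nlrc5, the transactivator of class I genes, was at 0.716 to 1.27 CPM and at 37.5, 1.87, 2.75, 1.25 and 0.472 CPM (log2 fold change 3.19 ± 0.92, adjusted p = 0.479, and 0.73 ± 0.39, adjusted p = 0.952, not past the threshold). In both genes the other 4 mice overlapped the Control mice. H2-Q7 and H2-M3, non-classical class I genes, had log2 fold changes of 3.04 and 0.87 with all mice (adjusted p = 0.479 and 0.479) and 0.44 and 0.40 without replicate 1, neither past the threshold (adjusted p = 0.978 and 0.952). Reads of the near-identical H2 genes may be split between them, so H2-Q7 is uncertain.

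Complement genes had 10 of 15 members upregulated with all mice and 3 without replicate 1. Serping1, the inhibitor of the first complement complex, was at 5.99, 7.50, 6.72, 8.75 and 8.27 CPM in Control mice and at 25.7, 13.2, 10.5, 20.03 and 10.9 CPM in Pool 2 mice. The groups did not overlap (log2 fold change 1.11 ± 0.30, adjusted p = 0.45, and 0.88 ± 0.28 without replicate 1, adjusted p = 0.782). C1s1 and C1ra, proteases of the first complex, had log2 fold changes of 1.46 and 1.20 (adjusted p = 0.468 and 0.479) and without replicate 1 of 0.76 and 0.61 (adjusted p = 0.875 and 0.952), where C1ra did not pass the threshold. Leaving out Control replicate 3, 4 or 5 in turn lowered the first count from 10 to 6. The second count ranged from 1, when Pool 2 replicate 4 was left out too, to 4.

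Cytokines, chemokines and adhesion genes had 14 of 29 members upregulated with all mice, and 3 upregulated and 1 downregulated without replicate 1. With a further library left out, the second count was 1 (Pool 2 replicate 3) to 5 (Control replicate 2), and the downregulated call was lost except without Control replicate 3, Control replicate 4 or Pool 2 replicate 5. Cxcl10, a chemokine that attracts T cells, was at 0.159 to 0.555 CPM in Control mice and at 10.9, 0.935, 2.25, 1.59 and 0.258 CPM in Pool 2 mice, so that replicate 5 lay within the Control range (log2 fold change 3.31 ± 0.93, adjusted p = 0.479, and 1.98 ± 0.77, adjusted p = 0.855). Socs3, a feedback inhibitor of cytokine receptors, was at 0.596 to 1.42 CPM and 1.42 to 4.39 CPM (log2 fold change 1.07 ± 0.30, adjusted p = 0.468, and 0.66 ± 0.25, adjusted p = 0.844). Cxcl9 was near 0 in all Control mice, at 8 CPM in replicate 1 and at 0 to 0.389 CPM in the other Pool 2 mice (adjusted p = 0.479, and adjusted p = 0.911 without replicate 1). The monocyte chemokine Ccl2 was at 2.38 CPM in replicate 1 and at 0.167 to 0.376 CPM in the other 4, against 0.0442 to 0.238 CPM in Control mice (adjusted p = 0.479, and adjusted p = 0.954 without replicate 1, not past the threshold). The gene downregulated without replicate 1 was the interleukin Il6 (log2 fold change −2.53, adjusted p = 0.931).

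**Figure D3:**
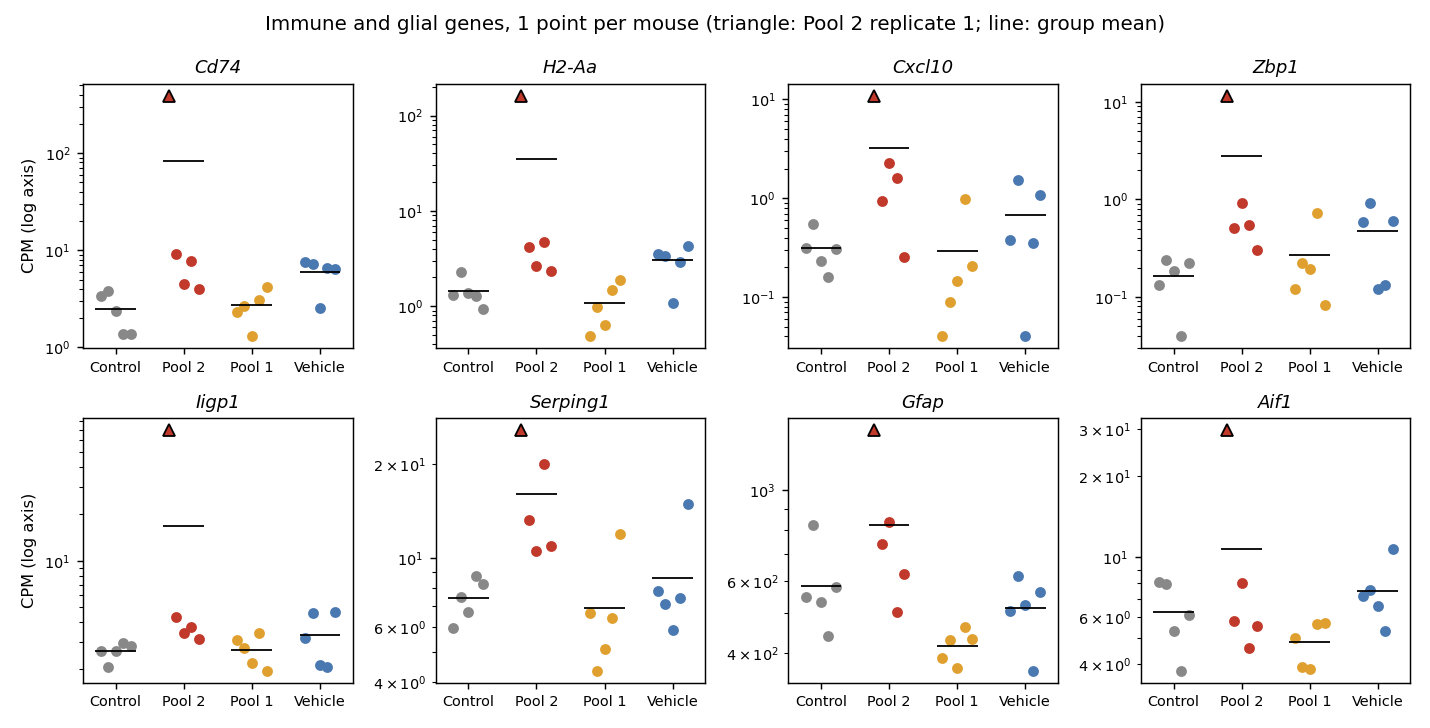
CPM on a log axis of 6 immune genes and of the glial genes Gfap and Aif1, 1 point per mouse in the 4 groups, with the group mean as a line. Pool 2 replicate 1 (triangle) is the highest of all 20 mice in every panel, and the other 4 Pool 2 mice lie near the Vehicle mice for Cd74 (3.95 to 9.15 CPM against 2.54 to 7.50 CPM).

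Among the immune cell classes, a larger share of perivascular and leukocyte markers than of microglial markers passed the threshold, a difference that was not tested. Of 20 markers of perivascular macrophages and leukocytes, 12 were upregulated with all mice and 6 without replicate 1, with median log2 fold changes of 1.44 and 0.85. Mrc1, the mannose receptor of perivascular macrophages, was at 1.88, 1.90, 2.49, 2.58 and 1.81 CPM in Control mice and at 2.92, 3.47, 2.12, 5.76 and 4.04 CPM in Pool 2 mice, with replicate 4 highest and replicate 3 within the Control range (log2 fold change 0.78 ± 0.25, adjusted p = 0.479, and 0.85 ± 0.25, adjusted p = 0.658). Ptprc, the common leukocyte antigen CD45, was at 3.93 to 5.75 CPM and at 23.4, 7.87, 6.96, 5.05 and 6.01 CPM (log2 fold change 1.11 ± 0.34, adjusted p = 0.479, and 0.51 ± 0.21, adjusted p = 0.888). Nkg7, a granule protein of natural killer and cytotoxic T cells, was at 0 in 3 Control mice and at most 0.0447 CPM in the others, and at 1.69, 0.117, 0.292, 0.376 and 0.129 CPM in Pool 2 mice. These are few reads per library, but the groups did not overlap (adjusted p = 0.39, and adjusted p = 0.64 without replicate 1). Ccr2, the receptor of blood monocytes, was at 0.0795 to 0.265 CPM and at 3.11, 0.623, 0.292, 1.00 and 0.172 CPM (log2 fold change 2.49 ± 0.71, adjusted p = 0.479, and 1.52 ± 0.61, adjusted p = 0.875).

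Genes of lymphocyte receptors were looked up after the list had been seen. Cd3e, a chain of the T cell receptor complex, was at 1.23 CPM in replicate 1, 0 to 0.209 CPM in the other Pool 2 mice and 0 to 0.221 CPM in Control mice. Cd8a was at 1.83 CPM in replicate 1, 0.0417 to 0.500 CPM in the others and 0.0447 to 0.265 CPM in Control mice. Cd79a of B cells was at 0 to 0.411 CPM in Pool 2 and 0.0398 to 0.313 CPM in Control mice (adjusted p = 0.989). In bulk tissue, more cells of a type cannot be told apart from more RNA per cell.

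Microglial markers are read against the 5.2% of all genes upregulated with all mice and 3.31% without replicate 1. Of 18 microglia identity genes, 4 were upregulated with all mice and 0 without replicate 1, with median log2 fold changes of 0.31 and 0.09. The first count ranged from 2 without Control replicate 4 to 10 without Pool 2 replicate 4. The log2 fold change was positive in all 18 genes with all mice and in 13 without replicate 1. Aif1, the microglial protein IBA1, was at 8.09, 7.93, 5.29, 3.78 and 6.10 CPM in Control mice and 29.7, 5.8, 8, 4.59 and 5.54 CPM in Pool 2 mice, and the difference did not pass the threshold (log2 fold change 0.78 ± 0.42, adjusted p = 0.699). Without replicate 1 it was −0.06 ± 0.22 (adjusted p = 0.998). Csf1r, the receptor that maintains microglia, was at 93.3 to 136 CPM in Control mice, 293 CPM in replicate 1 and 102 to 163 CPM in the other 4 (adjusted p = 0.547, and adjusted p = 0.952 without replicate 1, not past the threshold).

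Of 20 genes of phagocytic and lysosomal microglia, 10 were upregulated with all mice and 3 without replicate 1, with a range of 1 (Control replicate 3 or Pool 2 replicate 3) to 8 (Control replicate 2) when a further library was left out. Lyz2, the lysozyme of myeloid cells, was at 5.85 to 14.6 CPM in Control mice and at 76.1, 15.3, 18.8, 15.2 and 11.6 CPM in Pool 2 mice (log2 fold change 1.61 ± 0.48, adjusted p = 0.479, and 0.77 ± 0.30, adjusted p = 0.875). Spp1, osteopontin, was highest in replicate 4 at 23.1 CPM, with 3.83 to 8.63 CPM in the other Pool 2 mice and 2.46 to 6.67 CPM in Control mice (log2 fold change 1.30 ± 0.42, adjusted p = 0.479, and 1.36 ± 0.45, adjusted p = 0.8).

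Of 25 reactive astrocyte genes, 15 were upregulated with all mice and 6 without replicate 1, or 11 when Control replicate 2 was left out too. The mean log2 CPM of the list was 3.86 in replicate 1 and 2.21 to 2.66 in the other Pool 2 mice, against 1.87 to 2.64 in Control mice. Gfap, the intermediate filament of astrocytes, was at 547, 821, 535, 440 and 579 CPM in Control mice and 1396, 740, 836, 504 and 625 CPM in Pool 2 mice (log2 fold change 0.49 ± 0.22, adjusted p = 0.603, and 0.21 ± 0.17 without replicate 1, adjusted p = 0.969, not past the threshold). The groups overlapped in all but replicates 1 and 3. Cp, the copper-binding ferroxidase ceruloplasmin, was at 11.7 to 16.0 CPM and at 20.9, 16.8, 13.4, 30.1 and 22.2 CPM (log2 fold change 0.61 ± 0.18, adjusted p = 0.479, and 0.60 ± 0.20, adjusted p = 0.784). Fbln5, a matrix protein of elastic fibres, did not overlap, at 2.30 to 3.14 CPM in Control and 3.39 to 8.47 CPM in Pool 2 mice (log2 fold change 0.84 ± 0.25, adjusted p = 0.479, and 0.92 ± 0.26, adjusted p = 0.64). Of 16 astrocyte identity genes, 0 passed the threshold in either direction in either fit, and the water channel Aqp4 had a log2 fold change of 0.21 ± 0.13 (adjusted p = 0.745). The mean log2 CPM of that list was 8.27 in replicate 1 and 7.87 to 7.98 in the other Pool 2 mice, against 7.78 to 7.94 in Control mice.

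**Figure D4:**
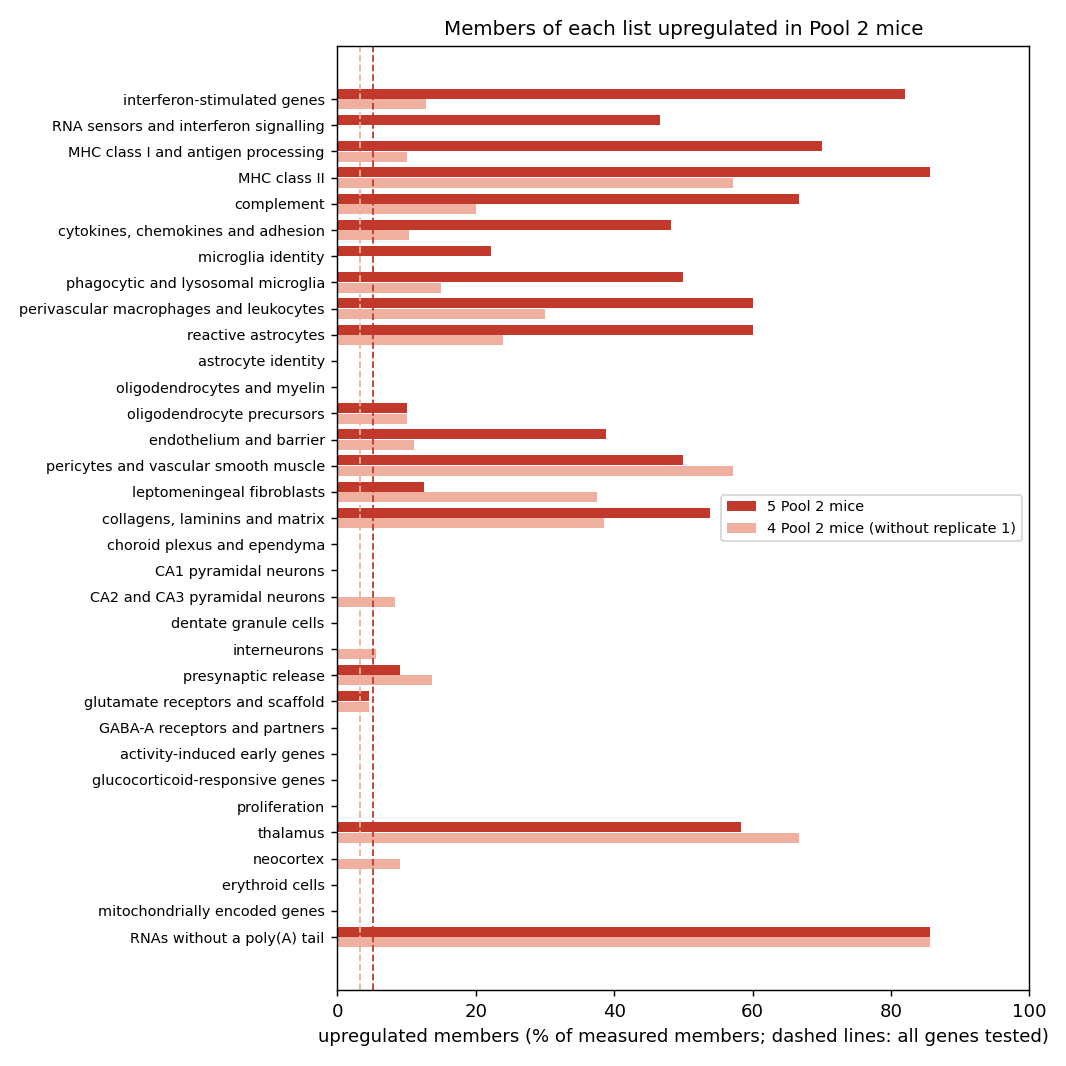
Percent of the measured members of each list that were upregulated in Pool 2 mice, with 5 mice (dark bars) and with 4 (light bars), with the share of all genes tested as dashed lines (5.2% and 3.31%). Immune lists shorten without replicate 1, whereas the bars for thalamus, pericytes and smooth muscle and leptomeningeal fibroblasts lengthen and that for RNAs without a poly(A) tail stays.

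Of 14 markers of pericytes and vascular smooth muscle, 7 were upregulated with all mice and 8 without replicate 1, with median log2 fold changes of 0.44 and 0.42. Pdgfrb, the receptor that marks pericytes, was at 16.9 to 28.1 CPM in Control mice and 27.2 to 34.5 CPM in Pool 2 mice (log2 fold change 0.36 ± 0.12, adjusted p = 0.486, and 0.30 ± 0.13, adjusted p = 0.909). Cnn1, calponin of smooth muscle, was at 0.0921 to 0.437 CPM and at 0.274, 0.623, 0.792, 1.17 and 1.07 CPM, with replicate 1 within the Control range (log2 fold change 1.24 ± 0.42, adjusted p = 0.486, and 1.45 ± 0.39 without it, adjusted p = 0.64). Notch3, a receptor of mural cells, was at 6.63 to 10.8 CPM and 10.9 to 15.2 CPM without overlap (log2 fold change 0.47 ± 0.17, adjusted p = 0.486). These counts rested on single libraries on both sides. Without Control replicate 3, the mouse with the lowest mural level, they were 2 and 1, and without Pool 2 replicate 4, the highest, 4 and 2. Leaving out Control replicate 2 lowered the count without replicate 1 to 3, and leaving out Control replicate 4 lowered it to 4.

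Endothelial genes had 7 of 18 members upregulated with all mice and 2 without replicate 1, against 5.2% and 3.31% of all genes. Pecam1, the adhesion molecule CD31, was at 19.2, 16.7, 7.78, 14.6 and 18.3 CPM in Control mice and 24.9, 22.2, 18.4, 21.2 and 22.2 CPM in Pool 2 mice (log2 fold change 0.51 ± 0.16, adjusted p = 0.479, and 0.46 ± 0.17, adjusted p = 0.844). Vwf, the clotting factor of endothelium, was at 6.08 to 14.8 CPM and 14.2 to 22.2 CPM (log2 fold change 0.67 ± 0.25, adjusted p = 0.529, and 0.60 ± 0.27, adjusted p = 0.931). Control replicate 3 was lowest in both genes, and without it 2 of the 18 were upregulated with all Pool 2 mice. Without Control replicate 1, 12 were. Beside Pool 2 replicate 1, leaving out a further library gave 0 (Control replicate 3) to 6 (Control replicate 1).

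Thalamic markers were among the upregulated genes in both fits. Of 12 markers, 7 were upregulated with all mice and 8 without replicate 1, with median log2 fold changes of 0.77 and 0.92, and 0 were downregulated. The mean log2 CPM of the list was 3.75, 5.24, 4.51, 5.89 and 4.26 in Pool 2 mice, and 3.76, 3.63, 3.99, 4.83 and 3.87 in Control mice. Replicates 2 and 4 of Pool 2 and replicate 4 of Control were the highest, and Vehicle and Pool 1 mice lay at 3.81 to 4.29 and 3.38 to 3.89. Without Pool 2 replicate 4 the counts were 2 of 12 with the other 4 mice and 3 of 12 when replicate 1 was left out too. Without Control replicate 1 or 2 the count with all Pool 2 mice was 4 in each case.

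Tcf7l2, a Wnt pathway transcription factor that defines thalamic neurons, was at 5.32, 4.84, 6.49, 22.1 and 6.24 CPM in Control mice and 7.40, 31.6, 13.3, 43.5 and 9.15 CPM in Pool 2 mice. Control replicate 4 exceeded 3 of the 5 Pool 2 mice (log2 fold change 1.22 ± 0.48, adjusted p = 0.567, and 1.44 ± 0.47, adjusted p = 0.804). Patj, a scaffold of cell junctions, was at 5.17 to 11.5 CPM and at 6.90, 17.8, 10.2, 33.3 and 9.45 CPM (log2 fold change 1.11 ± 0.34, adjusted p = 0.479, and 1.30 ± 0.31, adjusted p = 0.64). Rgs16, a regulator of G protein signalling, was at 5.13 to 10.5 CPM and at 4.30, 18.1, 11.2, 33.3 and 7.34 CPM (log2 fold change 1.03 ± 0.38, adjusted p = 0.53, and 1.26 ± 0.32, adjusted p = 0.64). In both genes replicate 4 was highest and replicate 2 next, as for the list. Lef1 and Tnnt1 had log2 fold changes of 0.86 and 1.66 (adjusted p = 0.479 and 0.569), and 0.99 and 1.95 without replicate 1 (adjusted p = 0.64 and 0.749).

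Receptors and channels among the leading genes without replicate 1 were highest in replicate 4 as well. Adra1b, an alpha-1 adrenergic receptor, was at 2.12 to 3.98 CPM in Control mice and 2.06, 5.65, 4.67, 13.8 and 3.61 CPM in Pool 2 mice (log2 fold change 1.32 ± 0.29 without replicate 1, adjusted p = 0.64, with a DESeq2 adjusted p-value of 0.0367). Hcn4, a pacemaker channel, was at 1.55 to 2.90 CPM and 0.823, 5.41, 2.83, 9.01 and 2.45 CPM (log2 fold change 1.23 ± 0.30 without replicate 1, adjusted p = 0.64). Chrna4, a nicotinic acetylcholine receptor subunit, was at 12.02 to 16.4 CPM and 10.9, 21.5, 21.2, 37.1 and 25.5 CPM (log2 fold change 0.83 ± 0.20 without replicate 1, adjusted p = 0.64). Replicate 1 was the lowest Pool 2 mouse in all of them. Opn3, Cited1, Tmem132c and Adamts15, also among these leading genes, were highest in replicate 4 too, at 2.504, 2.46, 8.80 and 9.06 CPM against at most 0.715, 0.967, 3.80 and 4.89 CPM in Control mice. The part of the thalamic level in these results was not tested.

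**Figure D5:**
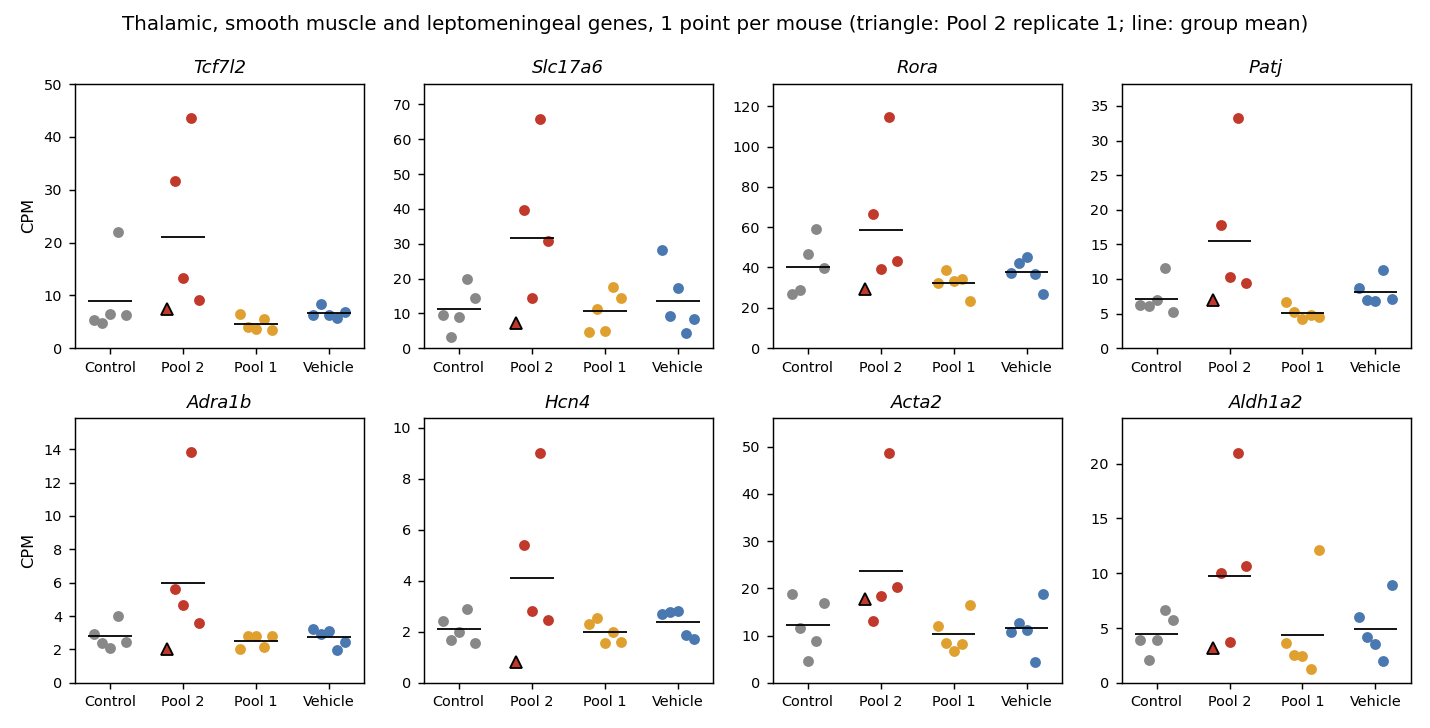
CPM of thalamic markers (Tcf7l2, Slc17a6, Rora, Patj), of Adra1b and Hcn4, of the smooth muscle actin Acta2 and of the leptomeningeal gene Aldh1a2, 1 point per mouse in the 4 groups, with the group mean as a line. Pool 2 replicate 4 is the highest mouse in every panel, replicate 1 (triangle) lies among the Control mice or below them, and Control replicate 4 is the highest Control mouse for Tcf7l2.

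Leptomeningeal fibroblast genes were highest in replicate 4 as a list. Of 16 markers, 2 were upregulated with all mice and 6 without replicate 1, with median log2 fold changes of 0.61 and 0.79. The shares of all genes upregulated were 5.2% and 3.31%. The mean log2 CPM of the list was 4.09 in replicate 4, 3.50 in replicate 5, 3.36 in replicate 2 and 2.57 and 2.58 in replicates 1 and 3, against 2.13 to 2.96 in Control mice. Fmod, a collagen-binding proteoglycan, was at 2.90 to 8.35 CPM in Control mice and at 4.89, 11.1, 6.29, 24.6 and 16.2 CPM in Pool 2 mice (log2 fold change 1.22 ± 0.48, adjusted p = 0.559, and 1.43 ± 0.47, adjusted p = 0.823). Col1a2, a fibrillar collagen chain, was at 7.74 to 13.8 CPM and at 16.9, 19.3, 10.9, 30.9 and 18.5 CPM (log2 fold change 0.78 ± 0.28, adjusted p = 0.521). Dcn, decorin, the defining gene of the list, overlapped widely, at 6.08 to 17.1 CPM and 8.46 to 40.1 CPM (log2 fold change 0.83 ± 0.55, adjusted p = 0.779). Without Pool 2 replicate 4 the counts were 0 and 1, and without Pool 2 replicate 3 they were 7 and 9. Without Control replicate 2 the second count was 3. Of 14 choroid plexus and ependymal genes 0 passed the threshold, with Ttr at 75.0 to 2114 CPM in Control and 53.6 to 1379 CPM in Pool 2 mice.

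For genes of hippocampal neurons the counts are read against the 5.2% of all genes upregulated and 1.01% downregulated. None of the 11 CA1 pyramidal, 12 dentate granule or 16 GABA-A receptor genes passed the threshold in either fit. With all mice, the log2 fold change was positive in 1 CA1, 9 dentate and 5 GABA-A receptor genes (medians −0.094, 0.055 and −0.074). Without replicate 1 it was positive in 2, 10 and 9 of them (medians −0.149, 0.114 and 0.008). Of 12 CA2 and CA3 and 18 interneuron genes, 1 and 4 were positive with all mice (medians −0.228 and −0.171). Without replicate 1 these were 3 and 5 (medians −0.139 and −0.085). Of 12 CA2 and CA3 genes, 1 was upregulated without replicate 1 (Coch, log2 fold change 0.89 ± 0.39, adjusted p = 0.922), and it was highest in replicate 4. None of the 18 interneuron genes was called with all mice, and Syt2 alone without replicate 1. These counts rested on single libraries. With Pool 2 replicate 1 kept, 5 interneuron genes were downregulated without Control replicate 4 and 3 without Pool 2 replicate 3. The downregulated count was 1 without Control replicate 1 or 5, or without Pool 2 replicate 2 or 5. The upregulated count was 1 without Control replicate 1 or Pool 2 replicate 3. Beside Pool 2 replicate 1, leaving out Control replicate 4, Pool 2 replicate 3 or Control replicate 5 gave 2, 3 and 1 downregulated. The upregulated count there was 1 without Control replicate 1, Pool 2 replicate 2 or Pool 2 replicate 3. It was 0 with any other further library left out. Of the CA2 and CA3 genes, 4 were downregulated without Control replicate 5, or 3 when replicate 1 was left out too. Of the CA1 genes, 1 was downregulated without Control replicate 4 in each fit, and 2 without Pool 2 replicates 1 and 5. The first gene of each list was Wfs1 (log2 fold change −0.12 ± 0.31, adjusted p = 0.964), Amigo2 (−0.49 ± 0.33, adjusted p = 0.789), Prox1 (0.09 ± 0.37, adjusted p = 0.981) and Gad1 (−0.13 ± 0.09, adjusted p = 0.798). The standard errors of the first 3 are as large as the threshold of 0.3 itself. Of 11 neocortical genes, Lamp5 was downregulated in both fits and the transcription factor Foxp2 upregulated without replicate 1 (log2 fold change 0.92, adjusted p = 0.855). Of 10 genes of oligodendrocyte precursors, the proteoglycan Cspg4 was upregulated (log2 fold change 0.35, adjusted p = 0.506, and 0.32 without replicate 1, adjusted p = 0.909). Proliferation, glucocorticoid-responsive, erythroid, mitochondrially encoded, and oligodendrocyte and myelin genes had 0 members past the threshold in both fits.

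Counts of synaptic genes are read against the 5.2% of all genes upregulated with all mice and 3.31% without replicate 1. Of 22 presynaptic release genes, 2 were upregulated with all mice and 3 without replicate 1. The first count was 0 without Control replicate 2 or Pool 2 replicate 4 and 1 without Control replicate 3 or Pool 2 replicate 2, and the second was 1 when Pool 2 replicate 4 was left out too. Slc17a6, the vesicular glutamate transporter that thalamic neurons use, was at 9.52, 3.13, 8.88, 20 and 14.4 CPM in Control mice and 7.17, 39.6, 14.5, 65.9 and 30.8 CPM in Pool 2 mice (log2 fold change 1.499 ± 0.63, adjusted p = 0.584, and 1.75 ± 0.60, adjusted p = 0.838). Syt9, a calcium sensor of vesicle release, was at 3.13 to 7.18 CPM and 4.3, 11.02, 9.04, 15.1 and 7.09 CPM (log2 fold change 0.83 ± 0.32, adjusted p = 0.552, and 1.01 ± 0.30, adjusted p = 0.669). In both, replicates 4 and 2 were the highest, as in the thalamic list. Syt2, the fast calcium sensor of inhibitory terminals, was at 26.3, 20.1, 20.1, 20.4 and 23.6 CPM and 25.1, 26.8, 21.0, 29.1 and 48.5 CPM, where replicate 5 was highest (log2 fold change 0.45 ± 0.22, adjusted p = 0.674, not past the threshold, and 0.50 ± 0.24, adjusted p = 0.952). Pvalb, the calcium buffer of fast-spiking interneurons, did not pass (−0.06 ± 0.21, adjusted p = 0.975). Of 22 glutamate receptor and scaffold genes, the receptor Grm4 was upregulated (log2 fold change 0.49 ± 0.22, adjusted p = 0.606, and 0.59 ± 0.22, adjusted p = 0.846), highest in replicate 4. Of 18 activity-induced early genes, Egr2 was downregulated without replicate 1 (log2 fold change −1.58 ± 0.71, adjusted p = 0.931), with 0.716 to 4.38 CPM in Control mice and 0.250 to 1.08 CPM in the 4 Pool 2 mice.

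With all mice, 86 protein-coding genes were downregulated, against 1002 upregulated. Lamp5, a membrane protein of some interneurons and cortical neurons, was at 63.7, 61.2, 47.0, 40.5 and 53.5 CPM in Control mice and at 37.4, 31.6, 43.4, 39.8 and 42.0 CPM in Pool 2 mice. The ranges overlapped at Control replicate 4 (log2 fold change −0.45 ± 0.12, adjusted p = 0.445, and −0.44 ± 0.13 without replicate 1, adjusted p = 0.658). Mrpl32, a protein of the mitochondrial ribosome, was at 18.1 to 22.1 CPM and 15.6 to 17.7 CPM without overlap (log2 fold change −0.31 ± 0.09, adjusted p = 0.479). Anapc10, a subunit of the anaphase-promoting complex, was at 11.1 to 13.2 CPM and 9.18 to 9.79 CPM without overlap (−0.31 ± 0.10, adjusted p = 0.479). For both, Vehicle mice reached down to the Pool 2 range, at 14.7 to 20.4 CPM and 8.52 to 11.4 CPM, and the log2 differences of Pool 2 from Vehicle were −0.01 (adjusted p = 0.996) and −0.09 (adjusted p = 0.955). Slc17a5, the lysosomal sialic acid transporter, and Mtrr, which reactivates methionine synthase, had log2 fold changes of −0.36 and −0.35 (adjusted p = 0.479 and 0.479). Itprid1, Arl6ip6, Pcdha11 and Klhl7 completed the leading genes with all mice, at log2 fold changes of −0.62, −0.36, −0.67 and −0.33 (adjusted p = 0.479, 0.479, 0.479 and 0.486). Without replicate 1, Immp1l, Rps27rt, Mterf1b and Med21 joined them, at −0.42, −0.90, −0.65 and −0.33 (adjusted p = 0.784, 0.8, 0.814 and 0.827).

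Dlx1, a homeobox factor of forebrain interneurons chosen by its p-value, was at 18.4, 17.9, 19.1, 11.4 and 13.3 CPM in Control mice and at 10.5, 11.5, 12.1, 10.6 and 13.8 CPM in Pool 2 mice. The ranges overlapped at Control replicates 4 and 5 (log2 fold change −0.45 ± 0.14, adjusted p = 0.479, and −0.42 ± 0.15 without replicate 1, adjusted p = 0.838). Vehicle mice had 14.8 to 23.3 CPM of Dlx1, above every Pool 2 mouse, with a log2 difference of −0.68 (adjusted p = 0.489), and Pool 1 mice had 14.9 to 18.6 CPM. Other Dlx genes were looked up after their values were seen. Dlx5 and Dlx6 had log2 fold changes of −0.55 and −0.51 (adjusted p = 0.504 and 0.572), and −0.50 and −0.40 without replicate 1 (adjusted p = 0.897 and 0.952), where Dlx6 did not pass the threshold. Dlx2 had −0.30 and did not pass (adjusted p = 0.729). The antisense transcripts Dlx1as and Dlx6os1 had −0.42 and −0.43 (adjusted p = 0.479 and 0.486), and whether reads were counted by strand is not given in the sources used here, so they cannot be told apart from their partners with certainty. The interneuron enzymes Gad2 (−0.23, adjusted p = 0.745) and Gad1 and the transporter Slc32a1 (−0.12, adjusted p = 0.886) did not pass the threshold.

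Noncoding genes with the smallest p-values fell into a raised and a lowered group. The lowered group was led by the Eef1a1 pseudogenes Gm5869, Eef1a1-ps1 and Gm13456, whose reads may be shared with the elongation factor gene Eef1a1 and are uncertain. Gm13456 was at 24.8, 27.1, 20.7, 20.8 and 5.66 CPM in Control mice and at 5.99, 4.21, 4.12, 3.92 and 3.91 CPM in Pool 2 mice (log2 fold change −2.16 ± 0.47, adjusted p = 0.408). The difference lay between 4 Control mice and the rest, since Control replicate 5 was at the Pool 2 level, as were all Pool 1 mice (3.06 to 4.87 CPM), and Vehicle mice ranged from 3.07 to 20.2 CPM. Gm5869 had 4.74, 3.41, 3.13, 3.54 and 0.575 CPM in Control mice and 0.0417 to 0.229 CPM in Pool 2 mice (log2 fold change −4.54 ± 0.86, adjusted p = 0.39). Gm36447, a long noncoding RNA, and the pseudogene Rpl19-ps11 had log2 fold changes of −0.79 and −0.57 (adjusted p = 0.468 and 0.479). Sox1ot, the transcript that overlaps Sox1, was at 18.4 to 29.6 CPM in Control mice and 12.7 to 18.5 CPM in Pool 2 mice, and Vehicle mice had 20.3 to 28.7 CPM (log2 fold change −0.43 ± 0.13, adjusted p = 0.479).

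The raised noncoding genes were led by 9530082P21Rik, a long noncoding RNA, at 1.03 to 1.99 CPM in Control mice and 2.06 to 3.57 CPM in Pool 2 mice (log2 fold change 0.89, adjusted p = 0.408, and 0.77 without replicate 1, adjusted p = 0.64), and by Gm37795 (log2 fold change 1.305, adjusted p = 0.408, and 1.08, adjusted p = 0.658). The others among the leading 5 belong to a list made up mainly of RNAs that carry no poly(A) tail and should be largely lost in a poly(A) selection. The coding gene Lars2 is also on this list, so its name does not hold for every member. Of 14 of that list measured, 12 were upregulated with all mice and 12 without replicate 1, with median log2 fold changes of 2.22 and 2.31. The mean log2 CPM of the list was 3.20, 2.28, 3.35, 3.48 and 3.11 in Pool 2 mice and 1.27, 0.489, 1.44, 0.745 and 1.73 in Control mice, with no overlap. Pool 1 mice lay at 1.90 to 4.33 and Vehicle mice at 1.07 to 3.15, so both covered most of the Pool 2 range. Gm23935 was at 12.2 to 34.9 CPM in Control mice and at 134, 62.8, 184, 148 and 208 CPM in Pool 2 mice (log2 fold change 2.80 ± 0.65, adjusted p = 0.408). Reads at the microRNA locus Mir6236 were at 0.873 to 2.12 CPM in Control and 3.00 to 10.5 CPM in Pool 2 mice (log2 fold change 2.13 ± 0.50, adjusted p = 0.408), and Pool 1 mice had 2.43 to 13.8 CPM.

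The mature sequence of Mir6236 is shown since it is the 1 annotated microRNA among the leading genes, although poly(A)-selected libraries do not measure mature microRNAs. Its seed, bases 2 to 8, is in capitals (RefSeq, GRCm38.p6, chr9:110281353-110281371, plus strand).
mmu-miR-6236: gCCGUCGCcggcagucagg

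Gm26917, another raised noncoding gene, was at 5.04 to 15.4 CPM in Control mice and 25.6 to 75.3 CPM in Pool 2 mice (log2 fold change 2.29 ± 0.59, adjusted p = 0.45, and 2.40 ± 0.62 without replicate 1, adjusted p = 0.64). No mitochondrially encoded gene passed the threshold, with a mean log2 CPM of 4.99 to 5.18 in Pool 2 and 4.71 to 5.43 in Control mice. The level of the list named RNAs without a poly(A) tail moved with the groups, and its part in the other results was not tested.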

How the data were processed

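RNA from the hippocampus of 20 mice (4 groups of 5) was sequenced as stranded, poly(A)-selected libraries. The authors aligned the reads to the mouse genome (GRCm38, mm10) with STAR and deposited raw, unnormalized counts per gene for 25190 genes. No gene summed to fewer than 10 counts, and read quality was checked with FastQC 0.11.5 per the submitters' notes. Whether reads were counted by strand is not given in the sources used here.

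Samples were grouped by their labels. Library sizes were scaled by TMM, and the quasi-likelihood test of edgeR 4.0.16 (robust estimation, under R 4.3.3) was applied in a model of all 4 groups over 20 libraries and again over 19 without Pool 2 replicate 1, with Benjamini-Hochberg adjustment over all genes. DESeq2 1.42.0, other filters, scalings and sets of libraries were alternatives. CPM values were computed here from the deposited counts, and log2 CPM of lists with a prior count of 2. Lists are described by counts and medians, and no set test was run. The gene lists, and the comparison itself, were chosen with earlier results of these data known. Genes named were the 10 upregulated and 10 downregulated coding genes, and 5 each of other types, with the smallest p-value in each fit at a mean normalized count of at least 10. Added to these were Gfap, Aif1, Syt2 and Pvalb, up to 4 called members of each list by p-value, and the first gene of each cell type list. Others were named after their values were seen. They are Rsad2, Gbp2, Cd3e, Cd8a, Cd79a, Dlx2, Dlx5, Dlx6, Dlx1as, Dlx6os1, Gad2, Slc32a1 and, in a plot alone, Rora, Acta2 and Aldh1a2. The steps were tested on simulated data. No library was a repeat of another: chi-square per degree of freedom between replicates ran from 12.3 to 59.1. Not every gene so chosen is described.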

Additional observations from a re-analysis of the deposited data

Results flagged for a closer look

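Single mice stood apart in their group in 17 of 162 groups of 5 looked at, by the size of the gap between the extreme mouse and its nearest neighbour (Dixon's critical value of 0.71), a test that chance passes in about 1 in 20 groups. Values are mean log2 CPM of a list or log2 CPM of a gene.

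Pool 2 replicate 1 was the outlying highest Pool 2 mouse for interferon-stimulated genes (4.08), RNA sensors and interferon signalling (4.29), MHC class I (5.53), MHC class II (5.92), complement (4.21), cytokines, chemokines and adhesion (2.06), perivascular macrophages and leukocytes (0.57), reactive astrocytes (3.86), astrocyte identity (8.27), endothelium and barrier (5.0), and for the genes Tgfbr2 (5.26) and Gm13456 (2.6). Pool 2 replicate 3 was the highest for choroid plexus and ependyma (4.23).

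Among the Control mice, replicate 4 was the lowest for erythroid cells (1.19), replicate 3 for the noncoding gene Gm37795 (−1.66), and replicate 5 for the pseudogenes Gm5869 (−0.6) and Gm13456 (2.52).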

How the results depend on the processing

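The counts of upregulated and downregulated genes depended on the filter and on single libraries. With all libraries, 1311 genes were upregulated and 255 downregulated. The upregulated genes numbered 852 when genes with mean normalized counts under 10 were dropped, 788 with filterByExpr, 852 over 18 libraries (also without Vehicle replicate 4) and 652 with DESeq2 over 19. The downregulated genes numbered 117 with a mean of at least 10. Leaving out 1 Control or Pool 2 library at a time gave 835 (without Pool 2 replicate 1) to 1436 upregulated and 226 to 496 (without Control replicate 4) downregulated genes. Genes with an adjusted p-value under 0.05 numbered 0 in edgeR, 18 with DESeq2, 15 with DESeq2 over 19 libraries, 1 with only the Pool 2 and Control libraries, 1 with the replicate block, and 0 with any single library left out.

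Without Pool 2 replicate 1, 835 genes were upregulated and 294 downregulated. Alternatives chosen after seeing the data gave 441 and 157 with a mean of at least 10, and, with a further library left out, 575 (without Pool 2 replicate 4) to 968 and 227 to 628 (without Control replicate 4, with 472 without Control replicate 5).

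The replicate block gave 1190 upregulated and 220 downregulated genes. The labels do not say whether equal replicate numbers pair the mice. Same-numbered mice correlated at 0.265, −0.239, 0.133, 0.184 and 0.167, and 2 of 5 correlated best with their own number. These few values cannot decide whether the mice were paired.

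Of 124 genes named, 103 passed the threshold with all libraries, and 62 of these passed it in every alternative that tested them. Most were named because they passed it in these data, and the alternatives share most libraries, so both numbers are partly built in. The log2 fold change turned sign with a library left out for Aif1 (−0.06 to 0.969), Hba-a1 (−0.023 to 0.406), Mbp (−0.117 to 0.162), Prox1 (−0.098 to 0.313), Pvalb (−0.199 to 0.131), Ttr (−2.384 to 0.617) and Wfs1 (−0.275 to 0.114). Over 18 libraries it was −0.06 for Aif1, −0.08 for Mbp and −0.023 for Hba-a1, and with DESeq2 over 19 it was −0.07, −0.091 and −0.033. None of these 7 genes had passed the threshold, and the cause was not tested.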
